A study of Sus scrofa with 9 samples.

Results

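In pig cumulus cells, the EGF-like peptides AREG and EREG were set directly against FSH on 3 arrays, each of which carried amplified RNA of AREG/EREG-stimulated cells in one dye and of FSH-stimulated cells in the other. These 3 of the 9 arrays of the study were chosen by their titles, which name both treatments, and they represent replicates 1, 2 and 3. COCs, oocytes still enclosed by their cumulus cells, were aspirated from ovarian follicles of 3 to 6 mm of slaughtered gilts. They were cultured for 3 h in medium with 5% fetal calf serum, which all groups shared. The AREG/EREG group received recombinant human AREG and EREG at 100 ng/ml each, the FSH group received recombinant human FSH at 100 ng/ml, and the Control group received neither. Each RNA sample came from the cumulus cells of about 150 pooled COCs and was amplified before labelling, so fewer cells of a type and less RNA per cell cannot be told apart. AREG/EREG was labelled red on 2 of the 3 arrays and green on the array of replicate 2. All ratios below are turned to AREG/EREG over FSH, so that a negative log2 value means a higher signal with FSH. The other 6 arrays set each treatment against Control, and their difference gave a second, indirect ratio of AREG/EREG to FSH for each replicate. Direct and indirect ratios of a replicate came from the same RNA samples and are therefore not independent.

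FSH acts on cumulus cells through its receptor, a G protein-coupled receptor that raises cAMP and activates protein kinase A. AREG and EREG are made by granulosa and cumulus cells after the gonadotropin stimulus and act through the EGF receptor and the MAPK cascade. Either stimulus sets off expansion, in which the cumulus cells deposit a matrix of hyaluronan cross-linked by proteins, and shifts the cells towards progesterone synthesis.

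Each array held 20736 spots, of which 19980 were probe spots for 19941 probes and 756 were controls. On the 3 arrays that carried both treatments, 87.1% to 95.4% of the probe spots were well above background in a given dye, and the image analysis marked 5.37% to 10.74% as outliers, which were not used. AREG/EREG over FSH was fitted on all 9 arrays with limma, with the treatments and a dye effect in the model. This contrast could be estimated for 19495 probes. A probe was called when its Benjamini-Hochberg adjusted p was under 0.01, and a log2 difference beyond 1.5 was the size limit used in the study. The value of a single replicate is the least-squares estimate from the 3 arrays of its loop, in which the dye effect cancels. Where a spot of the loop was not usable, the value is the direct or the indirect ratio alone, and the dye effect does not cancel. Precision is limited by the 3 RNA samples per treatment. Each RNA sample was on 2 arrays, and the standard errors and adjusted p-values of this fit do not take that sharing into account.

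AREG/EREG and FSH left different transcript levels at many probes, mostly by small amounts. Of the tested probes, 3993 were called (20.5%), and 8469 had an unadjusted p under 0.05. A fit with 1 value per RNA sample and the replicate as a block called 2357. AREG/EREG gave the higher level at 2355 of the 3993 called probes (12.1% of those tested) and FSH at 1638 (8.40%). The median absolute log2 difference of the called probes was 0.45, and the median over all tested probes was -0.01. The direction of the calls depended on their size. Below 0.25 on the log2 scale, 302 of 451 called probes were higher with FSH and 149 with AREG/EREG. From 0.25 to 0.5, 741 were higher with FSH and 1108 with AREG/EREG. Between 0.5 and 1, 952 probes were higher with AREG/EREG and 407 with FSH. From 1 to 1.5 the directions were nearly even, with 132 probes higher with AREG/EREG and 120 with FSH. Beyond 1.5 there were 82 probes (0.421%), of which 68 were higher with FSH (0.349%) and 14 with AREG/EREG (0.0718%). At 20 probes FSH exceeded AREG/EREG by more than 2 log2 units, and at no probe (0) did AREG/EREG exceed FSH by that much. The extremes of the called probes were -3.89 and 1.87. The excess of calls towards AREG/EREG turned when the channels were analysed separately, without using which samples shared an array: only 160 probes were then called, 32 of them higher with AREG/EREG (20%). On the indirect arrays alone 92 of 231 calls were higher with AREG/EREG (39.8%). Beyond 1.5, more probes were higher with FSH than with AREG/EREG under every one of the 18 alternatives, these included.

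**Figure D1:**
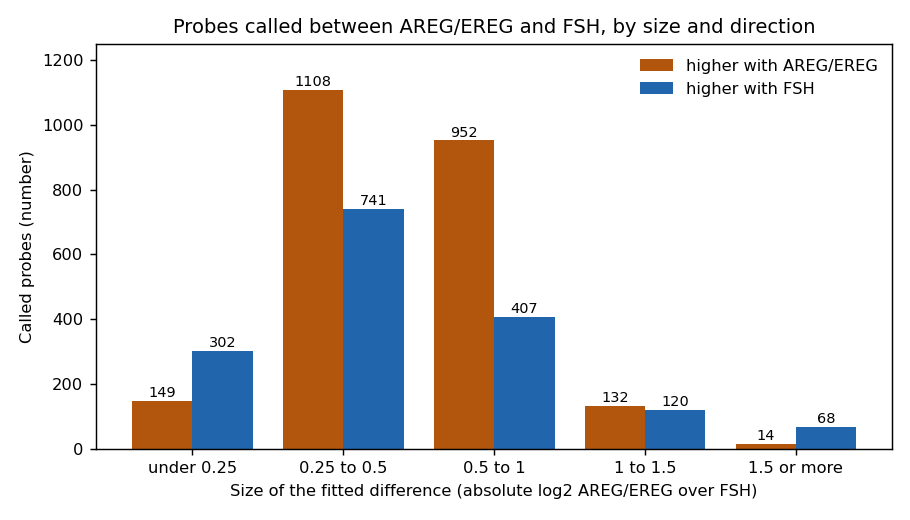
Number of probes called between AREG/EREG and FSH (vertical axis) by the absolute fitted log2 difference (horizontal axis), with separate bars for the direction of the difference. Below 0.25, 302 of 451 probes were higher with FSH, between 0.5 and 1, 952 were higher with AREG/EREG and 407 with FSH, and 68 of the 82 probes beyond 1.5 were higher with FSH.

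Of the genes of the expanding cumulus matrix, TNFAIP6 had by far the highest excess of FSH over AREG/EREG, and HAS2 and UAP1 were higher with FSH by smaller amounts. TNFAIP6, whose product transfers heavy chains onto hyaluronan and so stabilizes the matrix, gave normalized log2 intensities of 8.53, 9.87 and 8.64 with AREG/EREG and of 12.72, 13.16 and 12.90 with FSH in replicates 1, 2 and 3 of the direct arrays. The groups lay far apart, and replicate 2 had the smallest gap. The fitted log2 difference was -3.89 (standard error 0.18, adjusted p = 1.47e-06), a 14.8-fold higher signal with FSH. HAS2, the hyaluronan synthase of cumulus cells, had levels of 8.09, 7.82 and 8.03 with AREG/EREG and 8.83, 9.28 and 9.18 with FSH. Its groups were also separate, and the difference was -1.22 (standard error 0.15, adjusted p = 0.00024). UAP1, which makes the UDP-N-acetylglucosamine used for hyaluronan, had a difference of -1.15 (standard error 0.06). Its levels overlapped between groups (10.15 to 11.53 with AREG/EREG, 11.35 to 12.57 with FSH) although FSH was higher on each of the 3 arrays. PTGES, a prostaglandin E synthase, differed in the opposite direction by 0.74, with replicate values of 1.04, 0.15 and 1.03, and its levels overlapped. ADAMTS1, a protease that cleaves versican, had a difference of -0.40 and an adjusted p of 0.0449 and was not called. Of the 5 measured genes of this group 3 were thus higher with FSH, 1 was higher with AREG/EREG and 1 was not called, and their median difference was -1.15. Over all tested probes 8.40% were called higher with FSH and 12.1% higher with AREG/EREG, but all 5 probes had been picked by the study on these samples, so the count is no independent evidence about the group. The PTGES call did not hold with the replicate as a block (adjusted p = 0.0278), without replicate 1 (adjusted p = 0.0869) or without replicate 3 (adjusted p = 0.137).

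**Figure D2:**
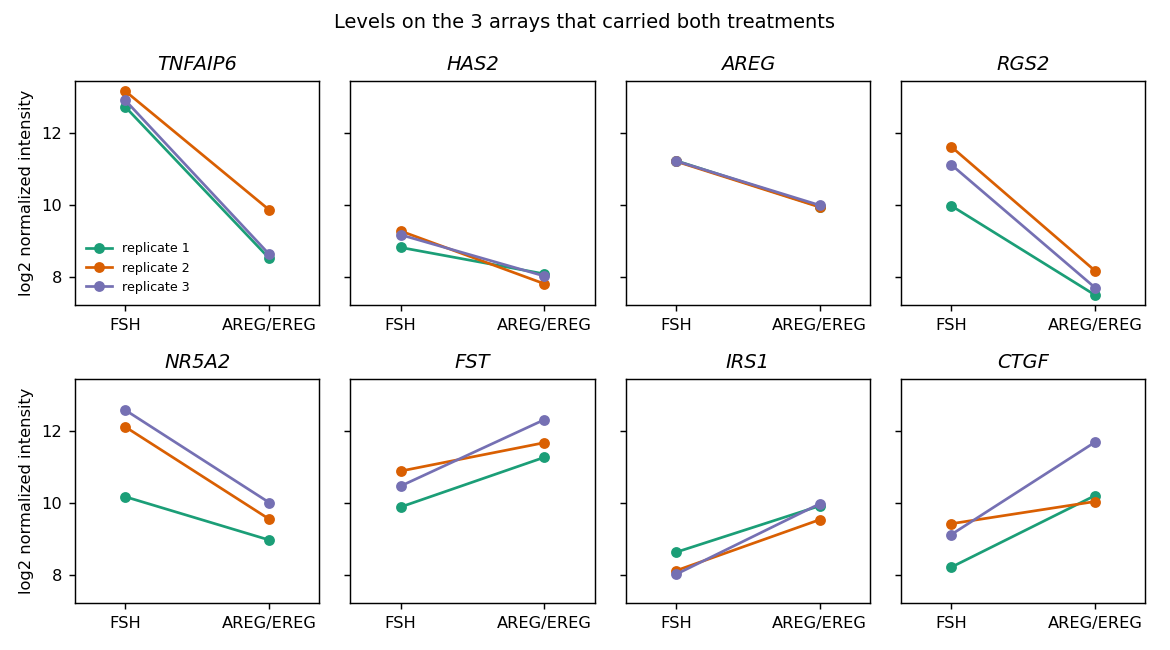
Normalized log2 intensity (vertical axis) of 8 genes in FSH- and AREG/EREG-stimulated cumulus cells on the 3 arrays that carried both treatments; a line joins the 2 channels of an array. TNFAIP6, HAS2, AREG, RGS2 and NR5A2 were lower and FST, IRS1 and CTGF higher with AREG/EREG on all 3 arrays, and the line of replicate 2 was the flattest for CTGF.

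The transcript of AREG itself was lower after the culture with AREG and EREG protein than after FSH. Its levels were 9.96, 9.95 and 9.997 with AREG/EREG and 11.23, 11.21 and 11.22 with FSH, so that the 3 arrays hardly differed. The fitted difference was -1.31 (standard error 0.10, adjusted p = 1.96e-05). FGF9, a fibroblast growth factor, was a dim probe with levels of 6.90, 7.43 and 7.13 with AREG/EREG and 7.69, 8.37 and 9.48 with FSH. Its replicate values were -1.0, -1.0 and -2.39 and its fitted difference was -1.46 (adjusted p = 0.00232). Replicate 3 stood apart from the others for FGF9, and the call was lost with the replicate block (adjusted p = 0.0115) and without replicate 1 (adjusted p = 0.0198). TRIB2, a pseudokinase that binds MAPK kinases, differed by -0.89, most in replicate 2 (-1.32), and missed the threshold without replicate 1 (adjusted p = 0.0122). The 3 measured genes of the EGF-like ligand, EGF receptor and MAPK group were called higher with FSH, against 8.40% of all tested probes, with a median of -1.31. The probes of AREG and TRIB2 had been picked by the study, and that of FGF9 was named by its RefSeq accession. The group is small because 49 genes were listed for it and only these carried a probe with a gene name.

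Among the genes of FSH receptor and cAMP signalling, RGS2 and FSHR differed in opposite directions. RGS2, which shortens signalling by G proteins, had levels of 7.51, 8.18 and 7.71 with AREG/EREG and 9.98, 11.62 and 11.12 with FSH. The groups were separate, and the gap was smaller in replicate 1 (-2.57) than in replicates 2 (-3.53) and 3 (-3.46). The fitted difference was -3.19 (standard error 0.18, adjusted p = 3.84e-06), or 9.12-fold. FSHR, the FSH receptor, was higher with AREG/EREG by 0.45 (standard error 0.08, adjusted p = 0.00272). Its levels were 9.49, 9.61 and 9.94 with AREG/EREG and 8.92, 9.13 and 9.45 with FSH, and its replicate values of 0.53, 0.42 and 0.41 were close to each other. The FSHR call was at the margin, with an adjusted p of 0.0117 with the replicate block, 0.01004 without replicate 2 and 0.0397 without replicate 3. RGS3, of the same family as RGS2, had a difference of -0.36 (adjusted p = 0.0463), and GNAS, the stimulatory G protein subunit, one of 0.05 on 7 arrays. Neither was called.

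Genes of steroid synthesis and steroid receptors were higher with FSH wherever they were called. This held for 5 of the 7 measured genes, against 8.40% of all tested probes, with a median difference of -1.12 for the group. Of the 5 called probes 4 had been picked by the study on these samples. CYP11A1, which carries out the first step from cholesterol to steroids, was measured on 8 arrays because its spot was an outlier on the direct array of replicate 1. Its levels were 14.46 and 14.89 with AREG/EREG and 15.85 and 16.21 with FSH in replicates 2 and 3, and its difference was -1.37 (standard error 0.17, adjusted p = 0.000414). TSPO, a cholesterol-binding protein of the outer mitochondrial membrane, lacked the same array and differed by -1.12. NR5A2, a nuclear receptor that drives steroidogenic genes, had levels of 8.97, 9.55 and 10.01 with AREG/EREG and 10.17, 12.10 and 12.57 with FSH. The difference was -2.09 (standard error 0.26, adjusted p = 0.000307). It was smaller in replicate 1 (-1.19) than in replicates 2 (-2.56) and 3 (-2.52), and missed the threshold without replicate 3 (adjusted p = 0.0159). PGR, the progesterone receptor, had levels of 9.53, 10.94 and 10.90 with AREG/EREG and 11.86, 12.58 and 12.10 with FSH. Its replicates were ordered otherwise, at -2.12, -1.67 and -0.99, with a fitted difference of -1.60 (standard error 0.18, adjusted p = 0.000176). ESR2, an oestrogen receptor, had a difference of -0.02 on 5 arrays.

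Genes of plasminogen activation were higher with FSH at both called probes described here. PLAUR, the urokinase receptor, had levels of 9.87, 10.27 and 9.54 with AREG/EREG and 11.12, 11.47 and 11.82 with FSH. The groups did not overlap, and the difference was -1.60 (standard error 0.15, adjusted p = 5.72e-05), most in replicate 3 (-2.19). PLAT, tissue plasminogen activator, differed by -0.91, with levels of 8.26, 8.40 and 8.21 against 8.68, 9.45 and 9.54. The PLAT call was lost without replicate 2 (adjusted p = 0.0380) and without replicate 3 (adjusted p = 0.0208). MMP14, a membrane-bound matrix protease, had a difference of -0.04 and was not called.

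Matricellular and proteoglycan genes were divided between the treatments. SDC4, a cell surface heparan sulfate proteoglycan, had levels of 8.47, 8.92 and 8.35 with AREG/EREG and 10.14, 10.82 and 10.60 with FSH, without overlap. The difference was -1.97 (standard error 0.11, adjusted p = 3.62e-06), and its 3 replicates lay between -1.76 and -2.12. SDC1, of the same family, had replicate values of -1.36, -0.07 and -2.14, so replicate 2 showed next to no difference. The fitted value of -1.19 passed the threshold (adjusted p = 0.00890), but did not with the replicate block (adjusted p = 0.0312) or without replicate 1 (adjusted p = 0.109), and without replicate 3 it was -0.71 (adjusted p = 0.115). CTGF, a matricellular protein, was the named gene with the highest excess of AREG/EREG. Its levels were 10.20, 10.04 and 11.68 with AREG/EREG and 8.22, 9.42 and 9.12 with FSH. The groups were separate, but replicate 2 gave 0.55 where replicates 1 and 3 gave 1.93 and 2.56. CTGF was measured on 8 arrays, and its value of replicate 3 is the direct ratio alone. The fitted difference of 1.55 (standard error 0.28, adjusted p = 0.00299) lost its call with the replicate block (adjusted p = 0.0106), without replicate 1 (adjusted p = 0.0799) and without replicate 3 (adjusted p = 0.0304). HS3ST1, which modifies heparan sulfate, had a difference of 0.22 and was not called. Of the 5 measured genes 2 were higher with FSH and 1 with AREG/EREG, beside 8.40% and 12.1% of all tested probes, and the median was 0.01. The study had picked 4 of the 5 probes on these samples.

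Transcription factors formed the group with most measured genes, 12, of which 6 were higher with FSH, 1 was higher with AREG/EREG and 5 were not called, beside 8.40% and 12.1% of all tested probes called in these directions. The study had picked 8 of the 12 probes on these samples. The median difference was -0.32. FOXO3, a forkhead factor restrained by AKT, had levels of 9.86, 9.61 and 9.19 with AREG/EREG and 11.23, 11.56 and 11.23 with FSH. The groups were separate, and the difference was -1.89 (standard error 0.09, adjusted p = 1.55e-06). CEBPB, a bZIP factor needed for ovulation, had usable spots on 6 arrays and on only 1 of the direct ones, where its levels were 7.78 with AREG/EREG and 9.15 with FSH. Its fitted difference was -1.32 (standard error 0.08, adjusted p = 5.93e-05). Replicate 1 gave no ratio of AREG/EREG to FSH, so this difference rests on replicates 2 and 3, which gave -0.96 and -1.39. Without replicate 3 the difference was -1.24 and CEBPB was not called. JUN, a subunit of AP-1, had a fitted difference of -0.66 but uneven ratios. The direct arrays gave -1.24, -0.43 and -0.92 and the indirect route 0.16, -0.57 and -0.37, and the call was lost without replicate 3 (adjusted p = 0.0316). FOS, its partner in AP-1, had a difference of -0.42 (standard error 0.28) and was not called, nor were FOXO1 (0.17) and PPARG (0.35, adjusted p = 0.0129).

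In the activin, BMP and TGF-beta group ID1 and FST differed in opposite directions. ID1, an inhibitor of bHLH factors and a usual target of BMP signals, had levels of 10.50, 11.31 and 10.77 with AREG/EREG and 12.71, 13.34 and 12.95 with FSH. Its 3 replicates gave -2.11, -2.07 and -2.12, and the fitted difference was -2.10 (standard error 0.12, adjusted p = 4.43e-06). FST, follistatin, which binds and neutralizes activin, had levels of 11.26, 11.67 and 12.31 with AREG/EREG and 9.89, 10.88 and 10.47 with FSH. The groups were separate, and the difference was 1.30 (standard error 0.16, adjusted p = 0.000265), least in replicate 2 (0.72). Without replicate 1 its adjusted p was 0.0135. INHA, the inhibin alpha subunit, was not called. Its replicates gave 0.05, -0.06 and 1.18, so that a difference was seen in replicate 3 alone.

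In the insulin and IGF group IRS1, the adaptor of the insulin and IGF1 receptors, was higher with AREG/EREG. Its levels were 9.92, 9.53 and 9.97 with AREG/EREG and 8.63, 8.12 and 8.02 with FSH, with no overlap. The difference was 1.45 (standard error 0.12, adjusted p = 2.50e-05). GADD45A, a stress-induced cell cycle regulator, differed by -0.79, with replicate values of -0.15, -1.09 and -1.13. The GADD45A call was lost with the replicate block (adjusted p = 0.0175), without replicate 2 (adjusted p = 0.0578) and without replicate 3 (adjusted p = 0.0833). EIF4E, the cap-binding translation factor, gave 1.22, 0.18 and 1.13 in the 3 replicates and missed the threshold (0.84, adjusted p = 0.0117).

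The called genes of redox and polyamine metabolism were higher with FSH, 3 of the 4 measured against 8.40% of all tested probes, with a median of -1.04. All 3 were probes picked by the study on these samples. SMOX, spermine oxidase, had levels of 8.53, 8.61 and 8.05 with AREG/EREG and 9.97, 10.13 and 10.36 with FSH, and differed by -1.83 (standard error 0.14, adjusted p = 1.57e-05). ODC1, ornithine decarboxylase, the first enzyme of polyamine synthesis, differed by -1.07 over 8 arrays. PRDX2, a peroxidase of the peroxiredoxin family, had replicate values of -1.01, -1.03 and -1.01, which was among the smallest spreads of the genes described. RBKS, ribokinase, was the only measured gene of the glycolysis and sugar metabolism list. It differed by -1.499 (standard error 0.09, adjusted p = 5.67e-06), just short of the size limit.

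Of the 6 measured genes of the cytoskeleton and adhesion list 2 were higher with AREG/EREG and 1 with FSH, beside 12.1% and 8.40% of all tested probes, and the median was 0.23. The study had picked all 6 probes on these samples. TNFRSF12A, the receptor of TWEAK, had levels of 12.45, 12.86 and 13.01 with AREG/EREG and 11.07, 11.45 and 11.31 with FSH. The groups were separate, and the difference was 1.33 (standard error 0.11, adjusted p = 2.47e-05). ITPKA, which phosphorylates inositol trisphosphate and bundles actin, differed by 0.90 and was lost without replicate 2 (adjusted p = 0.0144) and without replicate 3 (adjusted p = 0.0176). SBSN, suprabasin, differed by -1.999 over 7 arrays, with a direct ratio in replicate 3 alone (-2.32), and was lost without replicate 3 (adjusted p = 0.0125). ANXA1 (0.22), ANXA2 (0.12) and MARCKSL1 (0.24) were not called.

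Of the remaining named genes with the highest excess of AREG/EREG, PCNA, the sliding clamp of DNA polymerase, differed by 0.83. Its replicates gave 0.88, 0.36 and 1.25, and the call was lost with the replicate block (adjusted p = 0.0104), without replicate 1 (adjusted p = 0.0276) and without replicate 3 (adjusted p = 0.0268). QDPR, which regenerates tetrahydrobiopterin, differed by 0.90 (adjusted p = 0.000176). PDZD11, a PDZ domain protein, differed by 0.69 and missed the threshold without replicate 3 (adjusted p = 0.0164).

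**Figure D3:**
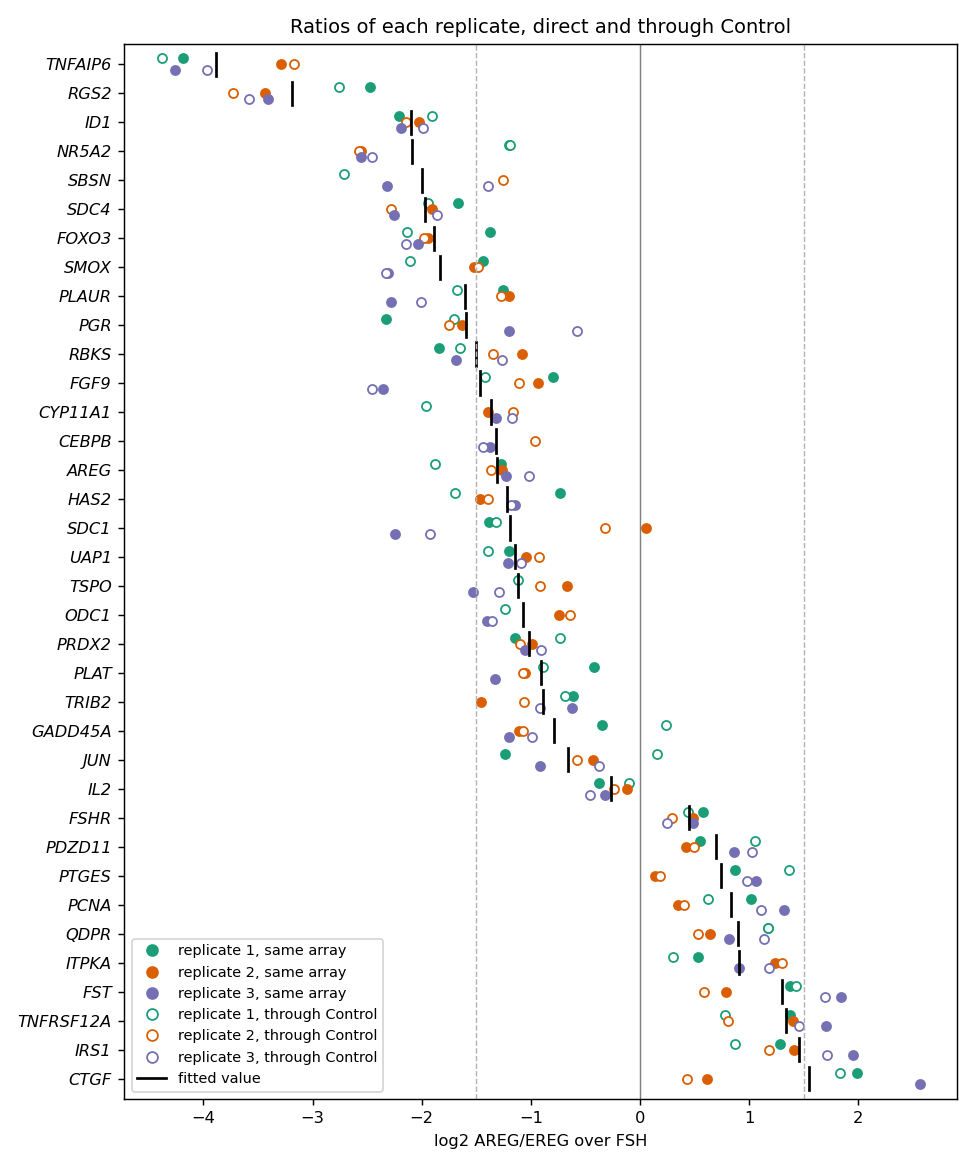
Log2 ratio of AREG/EREG over FSH (horizontal axis) of 36 named genes in each replicate; filled points are ratios from the array that carried both treatments, open points are ratios through Control, and black bars are the fitted values. For NR5A2 both ratios of replicate 1 (-1.20 and -1.19) lie apart from those of replicates 2 and 3, which lie together, and for SDC1 the ratios of replicate 2 (0.06 and -0.32) lie nearest to 0.

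Across these 36 genes, 26 were higher with FSH and 10 with AREG/EREG. These genes were chosen because they were called, so the split describes them only. The probes of 30 of the 36 genes had been picked by the study itself on these samples. Its probe table held 45 probes in all, of which 35 were called, 26 higher with FSH and 9 with AREG/EREG, with a median absolute difference of 1.30 over the called ones. Probes named through a RefSeq accession were not picked that way. Of 169 tested, 26 were called (15.4%), 19 higher with FSH and 7 with AREG/EREG, with a median absolute difference of 0.39.

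Markers of cell types could be checked at few probes. Of the granulosa and cumulus cell markers 6 of 14 were measured, all of them well above background in the 6 channels of either treatment. NR5A2 and CYP11A1 were higher with FSH and FSHR and FST with AREG/EREG, and INHA and ESR2 were not called. BMP15, the only measured marker of the oocyte, was a dim probe with levels of 7.37 to 7.89 with AREG/EREG and 7.39 to 7.87 with FSH and a difference of -0.02 (standard error 0.05). CD4, a marker of blood and immune cells, had a difference of 0.02 and was not called. IL2, a T cell cytokine, differed by -0.27 with overlapping levels, and its call was lost with the replicate block (adjusted p = 0.0169), without replicate 1 (adjusted p = 0.0472), without replicate 2 (adjusted p = 0.0118) and without replicate 3 (adjusted p = 0.0805). The part of other cell types in these results was not tested. No probe could be named for the theca, endothelial and reference gene lists (0 measured).

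Most probes beyond the size limit had no gene name. Of the 68 that were higher with FSH 58 were unnamed, and of the 14 that were higher with AREG/EREG 13 were. The unnamed probe TC228119:f was nearly as far towards FSH as TNFAIP6. Its levels were 11.29, 11.50 and 11.59 with AREG/EREG and 15.16, 15.12 and 15.21 with FSH, with a difference of -3.86 (standard error 0.10, adjusted p = 6.02e-08). The share of called probes also changed with brightness, from 5.06% in the dimmest of 4 equal classes of mean intensity to 19.3%, 30.8% and 27.1% in the brighter ones, and only 1 of the 82 probes beyond 1.5 lay in the dimmest class. All 12 channels of the 2 treatments were well above background for 92.2% of the called probes and for 80 of the 82 beyond 1.5.

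The direct ratio could be set against the indirect one in each replicate. Over the 15793 probes measured on all arrays they correlated across probes with r = 0.59, 0.66 and 0.78 in replicates 1, 2 and 3. These probes are not independent, and both ratios of a replicate share their RNA samples. A separate branch of probes ran against this relation, with opposite signs of the direct and the indirect ratio. In replicates 1 and 3 its direct ratios were negative and its indirect ratios positive, and in replicate 2, with the dyes swapped, the signs were reversed. By the layout of the loop a dye effect enters the direct ratio once and the indirect ratio with the opposite sign and 2 times the size, and it cancels in the fit. The dye effect was called at 211 probes (1.08%), 43 of them brighter in red, with a median absolute size of 0.31 and a maximum of 0.95. Of these 211 probes, 4 were also called between AREG/EREG and FSH, and none (0) of them beyond 1.5. Over all tested probes, 20.5% were called and 0.421% were beyond 1.5. The reason for the low overlap was not tested.

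**Figure D4:**
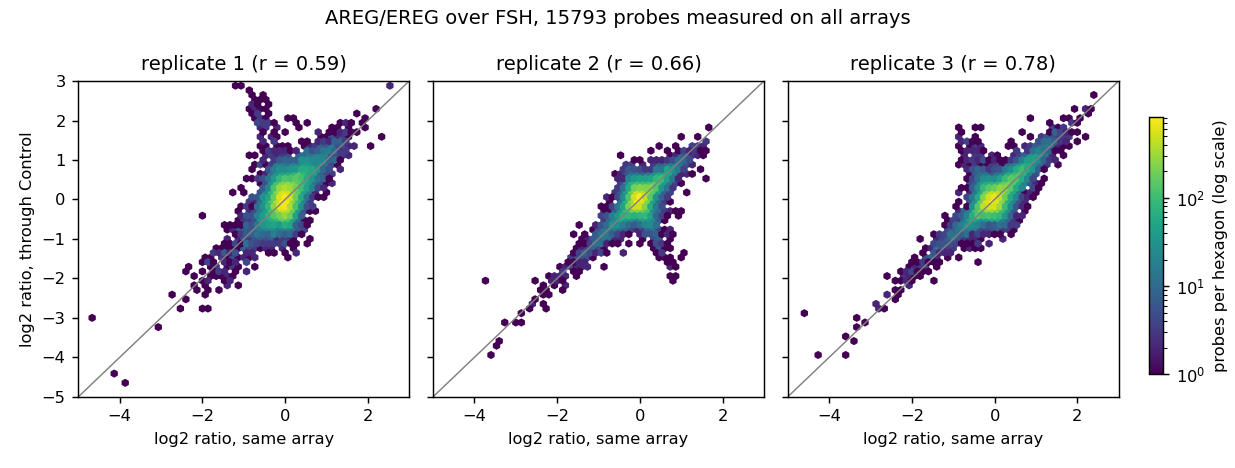
Log2 ratio of AREG/EREG over FSH on the array that carried both treatments (horizontal axis) against the ratio through Control (vertical axis) for 15793 probes, 1 panel per replicate, with the shade giving the number of probes. Most probes lie along the line of equal values, and the steep branch off the line changes sides in replicate 2, where the dyes were swapped.

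For the called probes the signs were nearly always shared, as the calls were made from these same ratios. All 3 replicate values had 1 sign at 3872 of 3876 called probes with 3 values, and all 6 direct and indirect ratios did at 3240 of 3468 (93.4%), against 5081 of all 15793 (32.2%). At the 70 probes beyond 1.5 that were measured on all arrays, the 6 ratios always had 1 sign. At these 70 probes the direct and the indirect ratio of a replicate, which share their RNA samples, differed by a median of 0.16. The SD between the 3 replicates, which are separate RNA samples, had a median of 0.34. The difference was smallest in replicate 2 at 33 of the 70 probes, in replicate 1 at 28 and in replicate 3 at 9. The median absolute value was 1.71, 1.67 and 2.03 in replicates 1, 2 and 3.

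The number of calls depended on how replicates entered the fit. With 1 value per RNA sample and the replicate as a block, 2357 probes were called, 2336 of them also called above, and 78 were beyond 1.5, of which 77 were. The direct arrays alone called 836 probes and the indirect arrays alone 231, of which 818 and 230 were also called over all arrays. Without replicate 1, 2 or 3 there were 1974, 2630 and 1155 calls. Probes beyond 1.5 and higher with AREG/EREG numbered 35 without replicate 2 and 4 without replicate 3, against 14 with all replicates, while those higher with FSH numbered 69 and 55 against 68. Scan days differed: the 3 arrays of replicate 1 had their own, and the other 6 shared one. Of 3912 called probes with a value on both days 3908 had the same sign on both. The calls were made from the arrays of both days, so this count is no test of the scan day. Scan day and replicate 1 cannot be told apart. With a dye effect for each scan day, 3369 probes were called.

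**Figure D5:**
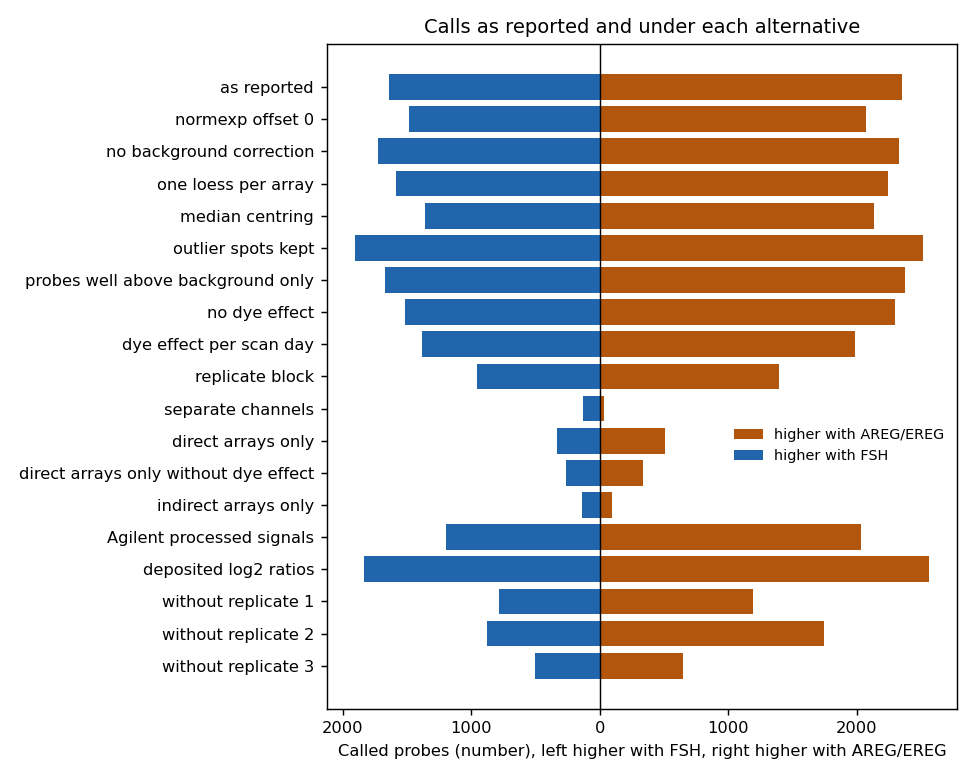
Number of probes called (horizontal axis) as reported and under each of 18 alternatives (vertical axis), to the left those higher with FSH and to the right those higher with AREG/EREG. Fewest were called with separate channels (160), where 32 were higher with AREG/EREG, and on the indirect arrays (231).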

How the data were processed

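The authors deposited Agilent Feature Extraction output with spot and background intensity for each dye, and log2 ratios that they had normalized themselves, used only as an alternative. The submitters' processing notes name limma. Here, with limma 3.58.1 in R 4.3.3, median intensities were corrected with normexp (offset 50, a value chosen here), ratios were normalized by print-tip loess without control and outlier spots, and repeat spots were averaged. Levels are channel intensities after A-quantile normalization. The ratios correlated with the deposited log2 ratios with r of 0.998 to 0.999 per array.

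The model of 9 arrays had treatment terms and a term for dye. It left 6 residual degrees of freedom for a probe on all arrays and was tested on simulated data. All adjusted p-values are limma's, with Benjamini-Hochberg adjustment over the tested probes. Arrays of 1 replicate share RNA samples, which this model does not take into account and the replicate block does. The block took samples with the same replicate number as belonging together. Over the 9 same-numbered pairs, deviations from treatment means had correlations between 0.18 and 0.72. Over the 18 other pairs they lay between -0.71 and 0.54. These ranges overlap and same-numbered samples also share arrays, so the correlations cannot show whether the samples were paired. The labels call the replicates biological.

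Genes were named by the study's probe table, or by RefSeq accession (182 of 195 probes matched). Named in the text are up to 4 called members of each list by size, a set of fixed genes, the 10 highest and 10 lowest called genes with 1 sign in all replicates, and members not called. A few genes that the rule names are left out of the text. The members and lists were chosen with earlier results of these data known. For 1 array (AREG/EREG and Control, replicate 3) a protocol text names FSH, and the other labels were followed.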

Additional observations from a re-analysis of the deposited data

How the results depend on the processing

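The 3993 calls became 2357 with the replicate block, 160 with separate channels, 836 on direct arrays, 606 on direct arrays without a dye effect, 231 on indirect arrays, and 1155 to 2630 with 1 replicate left out. Under the other alternatives they stayed within 1.5 times. The 82 probes beyond 1.5 became 50 on indirect arrays and 130 with Agilent's processed signals, and 59 to 104 with 1 replicate left out. The share of calls higher with AREG/EREG (59.0%) was 58.3% with a normexp offset of 0, 57.5% without background correction, 58.6% with 1 loess per array, 61.0% with median centring, 57.0% with outlier spots kept, 58.7% for probes well above background, 60.2% without a dye effect, 59.4% with the replicate block, 20% with separate channels, 60.4% on direct arrays, 56.1% on those without a dye effect, 39.8% on indirect arrays, 63.0% with processed signals, 58.3% with deposited ratios and 56.0% to 66.5% with 1 replicate left out. The 41 called genes of the lists became 14 with separate channels, 21 on direct arrays without a dye effect, 11 on indirect arrays and 24 to 36 with 1 replicate left out. The dye effect, called at 211 probes, was called at 1 to 8 with 1 replicate left out. The causes were not tested, other than that fewer arrays or samples enter the leave-one-out, direct, indirect and block fits. Of the 36 called genes described, none (0) turned its direction under any alternative that gave a value. The block changed no call of a described gene other than FGF9, SDC1, GADD45A, IL2, FSHR, PTGES, PCNA and CTGF. Normexp offset 0 and processed signals changed none other than SDC1 and PTGES. Other alternatives cost more calls. Of the 43 called probes that the naming rule picked, 27 lost their call with separate channels and 29 on indirect arrays. On direct arrays without a dye effect 19 were lost, and on direct arrays 10 of 40. HAS2, PGR and NR5A2 were lost both with separate channels and on indirect arrays, and PLAUR on direct arrays.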

Other observations

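The array also held mismatch versions of 60 probes, with 1 to 10 bases altered, which entered no count above. The CYP11A1 probe is one of them. Its unaltered form gave a log2 difference of -1.37 between AREG/EREG and FSH, and its versions with 1, 2, 3, 5, 7 and 10 mismatches gave -1.40, -1.501, -1.42, -1.54, -1.53 and -1.21. Over the parent probes that were called, the difference of the mismatch version had the sign of its parent at 12 of 12 with 1 mismatch and at 9 of 12 with 10 mismatches. The ratio of the mismatch to the parent log2 difference had a median of 0.97 with 1 mismatch, 0.64 with 7 and 0.39 with 10.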
